A study of Arabidopsis thaliana with 16 samples.

Results

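The genes described here are 9 Arabidopsis thaliana loci that encode splicing factors of the SR and RS type, out of 10637 loci in the tables of mRNA secondary structure. They were chosen by locus, by a rule that uses no measured value, but with earlier results of these data known. All 9 loci were present, with 22 isoforms. They are SR30 (AT1G09140), SR34 (AT1G02840), SR34a (AT3G49430) and SR34b (AT4G02430) of the SR subfamily, RS31 (AT3G61860), RS31a (AT2G46610), RS40 (AT4G25500) and RS41 (AT5G52040) of the RS subfamily, and SR45 (AT1G16610). SR proteins carry RNA recognition motifs and a tail rich in arginine and serine, bind pre-mRNA and recruit the spliceosome to splice sites. SR30, SR34, SR34a and SR34b resemble the mammalian factor SRSF1. The RS subfamily is found in plants, and its second RNA recognition motif lacks a short signature that is conserved in the SR subfamily. SR45 has arginine- and serine-rich stretches on both sides of its single RNA recognition motif and is often set apart from the SR proteins proper. Pre-mRNAs of many plant SR genes are themselves alternatively spliced, often in a long intron, and the resulting isoforms can encode shortened proteins.

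The study profiled nuclei from 4-week-old rosette leaves by protein interaction profile sequencing (PIP-seq), in which formaldehyde-crosslinked RNA is digested by an RNase specific for double-stranded RNA (dsRNase) or for single-stranded RNA (ssRNase), with or without prior removal of protein. All plants were of the UBQ10:NTF/ACT2p:BirA Columbia-0 genotype, in which a tag on the nuclear envelope is biotinylated so that nuclei can be purified, and the tag and the ligase are driven by promoters active in most cell types, so the nuclei of a leaf are a mixture. Control-treated plants and salt-treated plants, which received NaCl in steps over a long-term treatment, gave 2 replicates each, and each replicate gave 4 libraries, 16 in all. A protein protected site (PPS) is a region enriched in the library digested with protein present over the library digested without it, and each of the 4 replicates has 1 list of PPSs with both RNases in it. The structure score of a base is a log ratio of coverage in double-stranded RNA over single-stranded RNA libraries, so that a higher score means more paired RNA, and it was deposited once per condition with both replicates merged.

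Because of that merging a structure score has no replicate check, and the values below are descriptions with no test. Each transcript is scaled to its own mean, so that a higher score in one region of a transcript goes with a lower score elsewhere in it, and only differences within a transcript can be read. The largest absolute mean of any transcript was 0.00500 in both conditions. With 2 lists per condition, an exact two-sided test cannot give a p below 0.333, so PPSs are given per list. The deposited tables hold no read numbers, so the depth behind a single score or PPS cannot be given from them. All 5 leaf markers examined were in the structure tables, against 0 of 4 root and 0 of 2 flower markers.

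The PPS lists are named control 1, control 2, salt 1 and salt 2 after their condition and replicate, and values for all 4 lists are given in this order. They held 35513, 28080, 32443 and 26188 PPSs and were not independent of each other. Salt 1 and salt 2 had 15189 PPSs in common to the base and with an equal score, of which 0% lay on the same strand in both lists, whereas 100% of the 15442 that control 1 and control 2 had in common did. Across conditions, 11037 PPSs of control 1 recurred in salt 1 in this way. Over the 9 genes there were 144 distinct calls (start, end and score), of which 79 occurred in more than 1 list, 56 of these on both strands and 13 under both RNases. A call found in several lists can therefore not be taken as found several times independently, and PPSs were counted here on either strand.

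Sequences of matching exons are shown first because PPSs lay over the same exon in several of these genes. Each of the 4 RS genes has a coding exon of 113 nt directly after its long intron (after the second annotated intron in RS31, RS31a and RS41, and after the third in RS40), and each of these exons overlapped a PPS. They are given 5′ to 3′ on the strand of the gene from the TAIR10.1 genome, with the bases under a PPS of any list in capitals.
RS31 exon 3, chr3:22901143-22901255, minus strand: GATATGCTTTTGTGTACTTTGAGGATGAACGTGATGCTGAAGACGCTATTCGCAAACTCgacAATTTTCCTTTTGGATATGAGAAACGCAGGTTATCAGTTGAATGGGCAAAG
RS31a exon 3, chr2:19137569-19137681, minus strand: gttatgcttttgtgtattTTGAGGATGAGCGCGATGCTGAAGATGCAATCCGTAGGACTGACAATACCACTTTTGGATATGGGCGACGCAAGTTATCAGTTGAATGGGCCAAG
RS40 exon 4, chr4:13026056-13026168, plus strand: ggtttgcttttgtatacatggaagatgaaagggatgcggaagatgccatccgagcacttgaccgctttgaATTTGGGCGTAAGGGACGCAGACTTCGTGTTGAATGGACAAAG
RS41 exon 3, chr5:21132087-21132199, plus strand: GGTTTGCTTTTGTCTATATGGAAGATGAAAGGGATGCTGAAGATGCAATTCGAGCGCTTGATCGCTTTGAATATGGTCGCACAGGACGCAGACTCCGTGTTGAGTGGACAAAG

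With the lists pooled, the last 43 bases of this exon were under a PPS in all 4 RS genes. Taken singly, control 1 was the only list with a PPS over this exon in all 4 genes. RS40 and RS41 had the same base at 99 of the 113 positions, RS31 and RS31a at 91, and pairs across these branches at 69 to 78. In the SR subfamily, a coding exon of 50 nt (exon 7 of SR30 and exon 8 of the others) overlapped a PPS in all 4 genes. Of the single lists, only salt 2 had this in all 4. The exon is shown in the same way.
SR30 exon 7, chr1:2944730-2944779, minus strand: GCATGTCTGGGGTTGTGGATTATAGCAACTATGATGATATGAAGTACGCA
SR34 exon 8, chr1:627970-628019, plus strand: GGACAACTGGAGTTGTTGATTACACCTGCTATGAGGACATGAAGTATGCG
SR34a exon 8, chr3:18333797-18333846, plus strand: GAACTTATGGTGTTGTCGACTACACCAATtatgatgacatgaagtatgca
SR34b exon 8, chr4:1070368-1070417, plus strand: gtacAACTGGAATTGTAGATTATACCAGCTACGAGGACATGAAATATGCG

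The bases under a PPS numbered 50, 50, 29 and 46 in SR30, SR34, SR34a and SR34b, and pairs of these exons had the same base at 35 to 43 of 50 positions. Overlap with a PPS in 4 of 4 genes was not particular to the exons shown. It was also found for the SR exon of 103 to 142 nt. The RS exons of 230 to 242 nt and of 267 to 582 nt had it too. In the SR genes the exons of 75, 58 and 48 to 57 nt overlapped a PPS in 3 of 4 genes. Those of 66 and 47 nt did in 2 of 4. These exon counts pool the lists, and the share over all coding exons was not computed. Over all lists, 3956 of 8633 coding bases of the genes described here were under a PPS, beside 1922616 of 13878567 over all genes. Of 36 pairs of the 9 genes, RS40 and RS41 alone had any exact stretch of 30 bases in common over their whole span, with 12 such stretches. Whether reads of related genes were assigned to each other was not tested.

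Secondary structure of the coding sequence was compared first, in the isoform with the longest coding sequence (CDS) of each gene. In RS40 the mean score of the CDS was −0.26 in control and 0.06 in salt, a difference of 0.32. In SR34 it was −0.24 and −0.03, a difference of 0.21. These 2 of 9 genes were at least 0.2 higher in salt, beside 14.7% of 10003 genes, and 0 of 9 were at least 0.2 lower, beside 9.66%. SR30, SR45 and RS41 were higher by 0.15, 0.14 and 0.11, SR34b by 0.03, and RS31a, SR34a and RS31 had differences of −0.00, −0.09 and −0.17. The median difference of the 9 genes was 0.11 and that of all genes 0.02.

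The 5’ UTRs spread over a wider range. In RS41 the mean score of the 5’ UTR was 1.35 in control and −0.46 in salt, the largest difference among the 9 genes at −1.81, with 80 and 119 of its 119 bases scored. SR34b had −0.84 and −1.90, RS40 0.75 and −0.08, RS31a 0.66 and −0.03, SR45 0.41 and −0.13, and SR30 0.53 and 0.30. These 6 of 9 genes were at least 0.2 lower in salt, beside 41.8% of 8718 genes, and SR34 and RS31 were at least 0.2 higher, by 0.40 and 0.38, beside 41.5%. The positive sign of SR34 and RS31 did not hold on the bases scored in both conditions, where the differences were −0.07 and −0.28. Nor did the negative sign of RS31a hold with medians of bases, where the difference was 0.035. SR34a had −0.55 and −0.54, a difference of 0.00 after rounding.

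In the 3’ UTR the genes divided. RS40 had 0.81 in control and −0.26 in salt, SR34 had 0.94 and 0.05, SR45 0.10 and −0.72, and SR30 −0.21 and −0.50. These 4 of 9 genes were at least 0.2 lower in salt, beside 47.2% of 9569 genes. RS31a had 0.19 and 0.71, RS31 −0.35 and 0.10, SR34a −0.08 and 0.28, and RS41 −0.60 and −0.39, so that 4 of 9 genes were at least 0.2 higher, beside 33.8%. SR34b differed by 0.06. RS40 and SR34 combined a higher CDS with a lower 3’ UTR in salt, as did SR45 and SR30 with smaller values in the CDS. With medians of bases the 3’ UTR difference of SR30 was 0.16, so that SR30 did not have this combination.

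**Figure D1:**
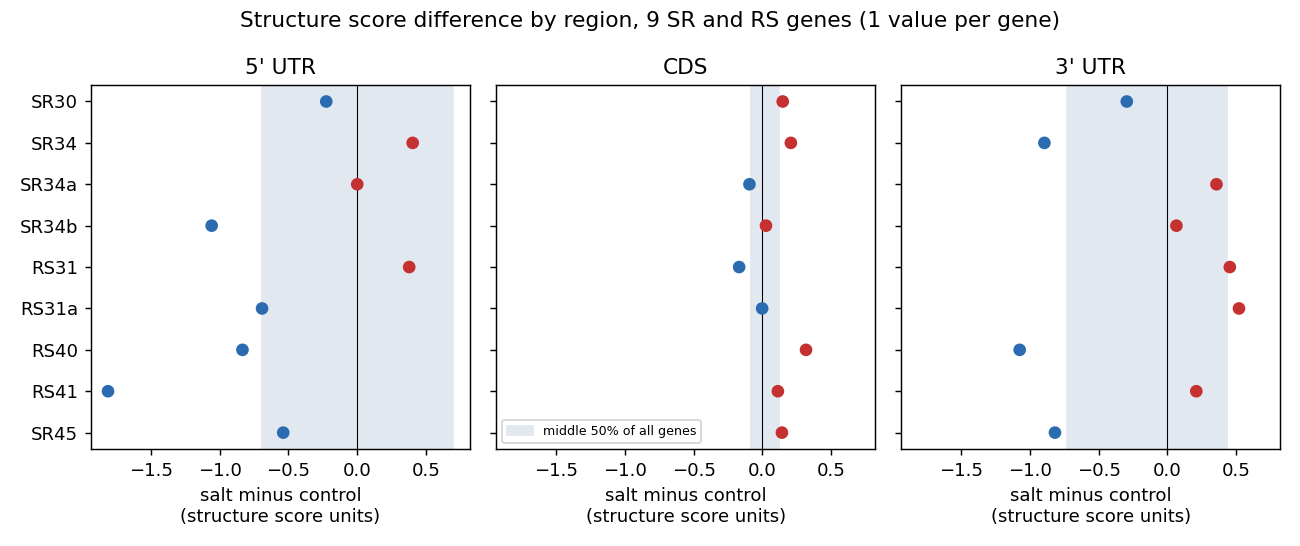
Difference of the mean structure score, salt-treated minus control-treated, for each of the 9 genes (rows) by transcript region (1 panel each), in structure score units, with 1 value per gene and no replicate error; red points are above 0 and blue points below. Grey bands hold the middle 50% of all genes, and the points of RS40, SR34 and SR45 lie right of the band in the CDS and left of it in the 3’ UTR.

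Other genes of the same machinery were described by counts. Of 11 further SR genes, of the SC35, SCL, RSZ and RS2Z subfamilies together with SR45a, 10 were in the tables, and in the CDS 2 were at least 0.2 higher and 3 at least 0.2 lower in salt, with a median of 0.08. The extremes were SR45a (AT1G07350), a relative of metazoan Tra2, at 0.39 and RSZ22 (AT4G31580), a zinc knuckle SR protein, at −0.29. Their 5’ UTRs included 3 higher and 7 lower genes and reached from −2.14 in SCL30 (AT3G55460) to 2.66 in RS2Z33 (AT2G37340). Of 9 partners (kinases that phosphorylate SR proteins, their nuclear importer and spliceosomal proteins that bind them), 7 were in the tables, with 1 CDS higher and 1 lower and a median of −0.06.

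Each CDS was then divided into 3 parts of equal length. In RS40 the last part had −0.82 in control and −0.01 in salt, and its lowest 25-nt bin of the control profile, at nucleotides 1026 to 1050 of the spliced transcript, had −2.38 against −0.08 in salt. At nucleotides 426 to 450 RS40 had 3.78 in salt and 0.58 in control. In RS31 the last part was lower in salt, with 0.89 and 0.04, and in SR34a the first part, with 0.69 and −0.08. SR30 was higher in salt in its last part, with −0.21 and 0.30. The last part of the CDS was the richest in codons for arginine and serine. They made up 57.6% to 65.0% of it in the 4 SR genes and 35.3% to 42.2% in the 4 RS genes. In RS40 and RS41 the middle part was not far below, with 28.2% and 31.1% against 35.3% and 37.0% in the last. SR45 had 44.2% in its first and 55.8% in its last part, against 28.3% in the middle one. Differences of the last part had no common sign: it was higher in salt in SR30, RS31a, RS40, RS41 and SR45 and lower in SR34, SR34a, SR34b and RS31, with SR34, SR34a, SR45 and RS41 between −0.05 and 0.06.

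**Figure D2:**
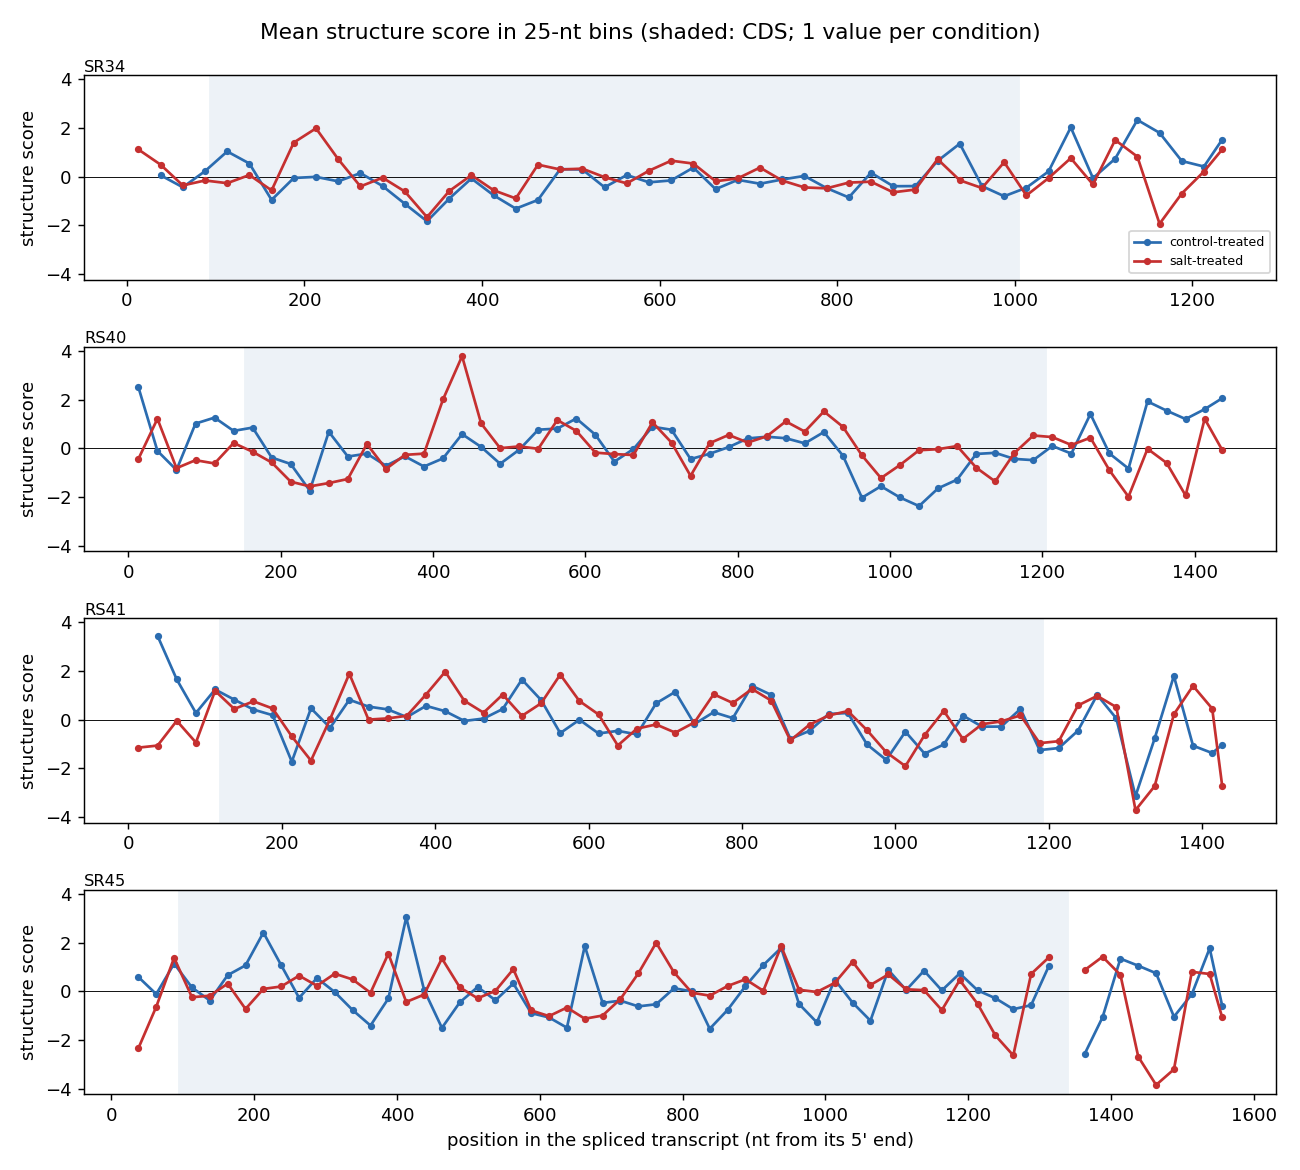
Mean structure score (vertical axis, score units) in 25-nt bins along the spliced transcripts of SR34, RS40, RS41 and SR45 (horizontal axis, nt from the 5’ end), with control-treated tissue in blue, salt-treated tissue in red, the CDS shaded and 1 value per condition. In the CDS of RS40 the salt line is the higher one at nucleotides 426 to 450 (0.58 in control, 3.78 in salt) and at nucleotides 1026 to 1050 (−2.38 and −0.08), and in its 3’ UTR the control line is mostly the higher one.

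Control and salt profiles were compared base by base. Pearson's r between the conditions, over bases that share libraries and neighbours and are not replicates, was 0.48 in SR34b over 1493 bases and 0.44 in RS41 over 1387, between 0.23 and 0.30 in SR30, SR34, SR34a, RS31, RS31a and RS40, and −0.04 in SR45 over 1418 bases. The median over 10632 genes was 0.20, with a 10th percentile of −0.01 and a 90th of 0.42. SR34b and RS41 thus lay above the 90th percentile and SR45 below the 10th. In SR45 exon 4 had −1.09 in control and 0.87 in salt, while exon 11 had 0.16 and −1.77.

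Exons at the same place in related genes were compared next. They were matched by order and length after the values were known, so that their agreement is a description only, and related sequences share bases and are not independent. Of 60 exons of the 9 genes that lie wholly in the CDS, 40 had a higher mean in salt, beside 51.3% of 49520 such exons of all genes, and 20 a lower mean, beside 48.7%. Their median difference was 0.20 and that of all such exons 0.03. Over all such exons the 10th percentile of the difference was −1.20 and the 90th 1.18.

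The 113-nt exon of the RS genes, shown above, was lower in salt in 4 of 4 genes. RS31a had 0.42 in control and −0.48 in salt, RS40 −0.07 and −0.73, RS41 0.42 and 0.06, and RS31 −0.15 and −0.22. RS31 differed by only −0.06 and had the opposite sign, 0.06, when medians of the bases were used. The exon after it, of 230 to 242 nt, was higher in salt in 4 of 4 genes. RS40 had 0.18 and 0.86, RS31a −0.10 and 0.54, RS41 0.36 and 0.84, and RS31 0.13 and 0.27. In both exons RS31 had the smallest difference of the 4 genes. The next exon, of 267 to 582 nt, was higher in salt in 3 of 4 genes, and in 2 of 4 by medians of bases. It was lower in RS31, by −0.38.

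In the SR subfamily, the exons of 75 nt, of 103 to 142 nt and of 58 nt were higher in salt in 4 of 4 genes each. The 75-nt exon differed by only 0.03 in SR30 and 0.07 in SR34, and by 0.32 in SR34a and 0.43 in SR34b. Other exons were mixed. The 47-nt exon was higher in 3 of 4 genes and lower in SR34b, by −0.60, and the exon of 48 to 57 nt was higher in 2 of 4. The exon of 103 to 142 nt had 0.28 in control and 0.51 in salt in SR30, −1.004 and −0.72 in SR34, −0.79 and −0.23 in SR34a, and −1.09 and −0.79 in SR34b. It was thus below 0 in both conditions in SR34, SR34a and SR34b, and above 0 in both in SR30. By medians of bases the 58-nt exon was higher in 3 of 4 genes. The 50-nt exon shown above was higher in SR34a, SR34b and SR34, by 1.04, 0.91 and 0.29, and lower in SR30, by −0.55. The 66-nt exon was the most divergent, with −0.06 in control and 1.55 in salt in SR34 but 2.98 and −0.14 in SR34a.

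**Figure D3:**
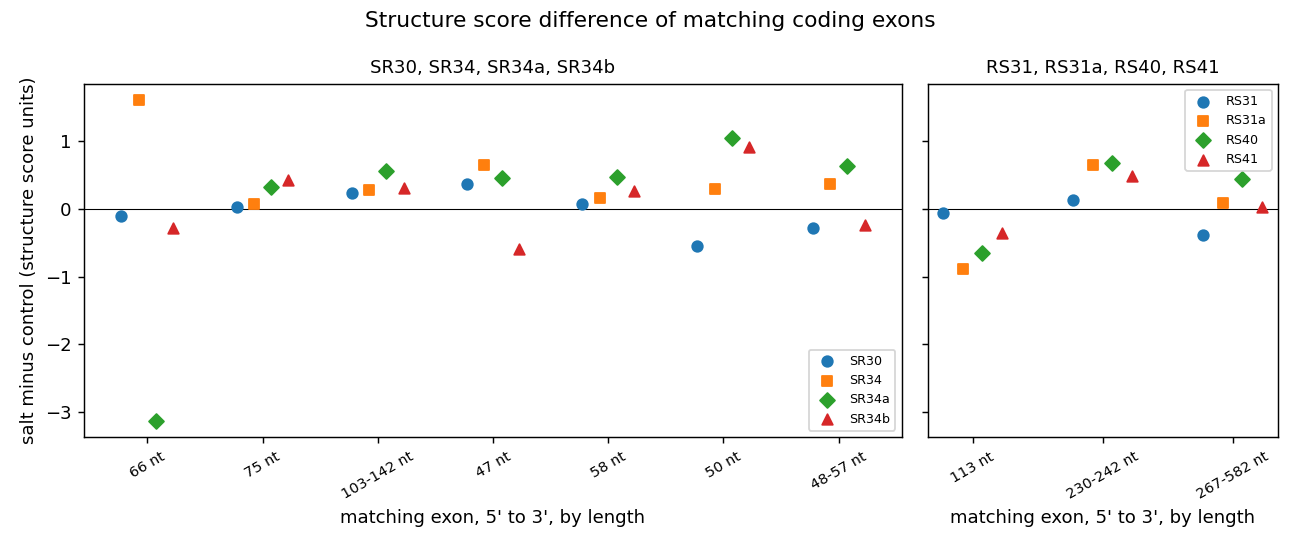
Difference of the mean structure score, salt-treated minus control-treated (vertical axis, score units), of exons at the same place in the 4 SR genes (left) and the 4 RS genes (right), ordered 5’ to 3’ and named by their length. All 4 RS genes lie below 0 at the 113-nt exon and above 0 at the exon of 230 to 242 nt, and the SR genes spread from −3.13 to 1.61 at the 66-nt exon.

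Isoforms of SR30, SR34, RS31a, RS40 and RS41 have exonic segments inside the longest intron of the main isoform. Their scores were taken as scaled in the isoforms that hold them. At the bases that isoforms of a gene share, control scores had a median r of 1 over 1628 plus-strand and 1575 minus-strand genes. A score thus belongs to a base and is not specific to an isoform. Which transcripts, spliced or unspliced, gave the reads of these segments was not tested. SR30 has its longest intron of 942 nt before exon 11, and isoform 2 starts this exon 338 nt earlier. This segment (chr1:2943227-2943564) had −0.27 in control and 0.06 in salt. SR34 has the matching intron of 818 nt, and isoform 2 starts exon 11 353 nt earlier (chr1:628935-629287), with −0.08 in control and −0.27 in salt. The acceptor sites are shown because they are the alternatives between which these isoforms choose, as the last 20 bases of the intron and, in capitals, the first 10 of the exon.
SR30 main acceptor, chr1:2943217-2943246, minus strand: ggtttttggtcttgctgcagGTCCCAATCA
SR30 upstream acceptor, chr1:2943555-2943584, minus strand: ttgcgttgtttgttttctagATCTGGCTCA
SR34 main acceptor, chr1:629268-629297, plus strand: cttttcttggacttttgcagATCGCGTTCA
SR34 upstream acceptor, chr1:628915-628944, plus strand: ctaatttacattgctgctagATGGATAACA

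In RS31a, RS40 and RS41 such segments lie in the intron before the 113-nt exon, while RS31 has 1 isoform in the tables. RS41 isoform 3 has 254 nt there with 0.96 in control and 0.79 in salt, and isoform 4 has 326 nt with 0.65 and 0.39. RS40 isoform 3 has 257 nt, with 0.45 in control and −0.11 in salt, a difference of −0.55 beside −0.16 and −0.26 for the segments of RS41. RS31a isoform 2 extends exon 2 by 556 nt into the intron, with 0.24 and 0.36. SR34a isoform 2 keeps the 111 nt between exons 11 and 12, with 1.76 in control and 0.52 in salt over 75 and 90 scored bases.

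SR45 isoforms 1 and 2 differ at the start of exon 7, where isoform 1 has 21 further bases (chr1:5677356-5677376), and this segment is known to separate both SR45 isoforms in function. This segment had a mean score, as scaled in isoform 1, of −0.84 in control and 2.49 in salt, with all 21 bases scored in both. It is shown alone and within the first 90 bases of exon 7 (chr1:5677287-5677376, minus strand). Capitals there mark a PPS found in neither salt list and, with the same start, end and score, in both control lists.
SR45 alternative segment: catctcctcaacggaaaacag
SR45 start of exon 7: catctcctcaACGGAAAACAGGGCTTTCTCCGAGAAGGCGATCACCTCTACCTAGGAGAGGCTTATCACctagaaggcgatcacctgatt

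PPSs were then counted over the span of each gene. SR30 had 14 and 15 PPSs in the control lists and 18 and 9 in the salt lists. SR34b had 17 and 7 against 10 and 20, and RS31a had 10 and 6 against 6 and 5. These 3 genes and RS41, with 10 and 1 against 10 and 16, had a PPS in each of the 4 lists, which is 4 of 9 genes beside 21.0% of 10637 genes. SR34 had 9 and 0 against 3 and 10, SR34a 7 and 0 against 0 and 8, and RS40 3 and 0 against 2 and 4. RS31 had 9 and 9 against 6 and 0, and SR45 2 and 3 against 3 and 0. RS31 was the only one of the 9 genes in which both salt lists held fewer PPSs than either control list, and in none of the 9 did both hold more. In RS31 this rests in part on salt 2, which held 0 PPSs there. The share of all genes with such an order was not computed, so no direction is read from it.

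The lists held 81 and 41 PPSs over the 9 genes in control and 58 and 72 in salt, so the replicates of a condition differed by more than the conditions. As a share of the whole list this was 2.28 and 1.46 against 1.79 and 2.75 per 1000 PPSs. Control 2 held none in SR34, SR34a and RS40, salt 1 none in SR34a, and salt 2 none in RS31 and SR45. On the strand of the gene there were 32 and 27 PPSs in the control lists and 45 and 47 in the salt lists, an order that rests on strands that the lists do not share, as given above.

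**Figure D4:**
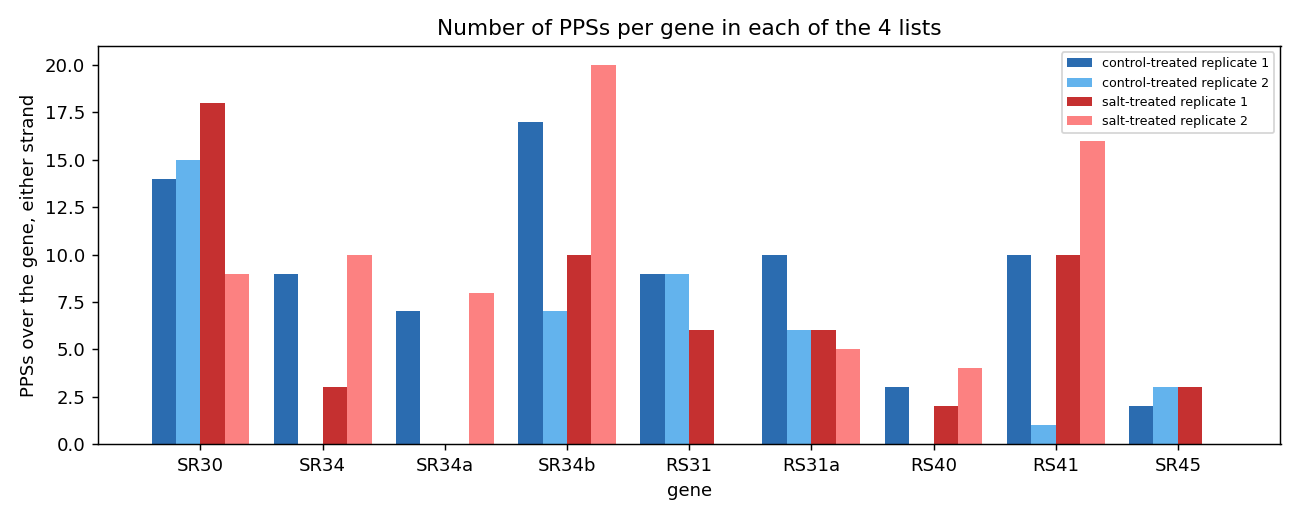
Number of PPSs on either strand (vertical axis) over each of the 9 genes (horizontal axis) in the 4 lists, with control-treated replicates in blue and salt-treated replicates in red. SR34, SR34a and RS40 have no bar for control 2, SR34a none for salt 1, and RS31 and SR45 none for salt 2.

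When PPSs of all lists that overlapped by at least 1 nt were merged, the 9 genes had 89 distinct regions, from 4 in SR45 and 5 in RS40 to 13 in SR34 and 16 in SR34b, whereas the median over all genes was 1 and the 90th percentile 10. These genes and all genes were not matched on length. High numbers were not particular to them: the further SR genes described above had 2 to 13 distinct regions and the partners 2 to 19. Regions with a PPS in all 4 lists were found in SR30, SR34b and RS31a, which is 3 of 9 genes beside 17.4%. SR30 had 6 of them, over exons 1, 2, 3, 4, 8 and 9, and the region over exon 3 (chr1:2945382-2945456, exactly the 75-nt exon) had the highest PPS score over the 9 genes, 41.1. SR34b had 7, over exons 2, 5, 7, 8, 9 and 11 and intron 10. RS31a had 3, over exon 4 and both ends of exon 6, of which the last reached 34 nt beyond the gene. Each of these 3 was a single call with the same start, end and score in all 4 lists. SR34b also had 3 such calls, and SR30 had 0. Without identical calls, overlaps between replicates in RS31a fell from 5 to 1 in control and from 4 to 0 in salt. RS41, which had none in all 4 lists, had its highest score, 39.0, over the 113-nt exon.

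Regions in both salt lists and neither control list were found in 4 of 9 genes, beside 14.3% of all genes. They were 48 nt in exon 12 of SR30 (chr1:2942711-2942758), 84 nt in the alternative segment of SR34 (chr1:628941-629024), 35 nt in exon 3 of SR34b (chr4:1069489-1069523) and 87 nt in exon 6 of RS40 (chr4:13026577-13026663). The reverse was found in 2 of 9 genes, beside 16.7%, as 51 nt in exon 3 and 57 nt in exon 5 of RS31 and as the 59 nt in exon 7 of SR45 shown above. Since salt 2 held no PPS at all in RS31 and SR45, the absence of these regions from both salt lists is in part that of 1 list. The same holds for the regions of SR34 and RS40 found in the salt lists alone, since control 2 held no PPS in either gene. The region of RS40 was a call with the same start, end and score in both salt lists. The region of SR45 was likewise the same call in both control lists. Neither can be taken as found in 2 replicates independently. Overlaps between the replicates of a condition numbered 24 in control and 37 in salt, of which 15 overlapped each other, but 17 and 19 when identical calls were left out.

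**Figure D5:**
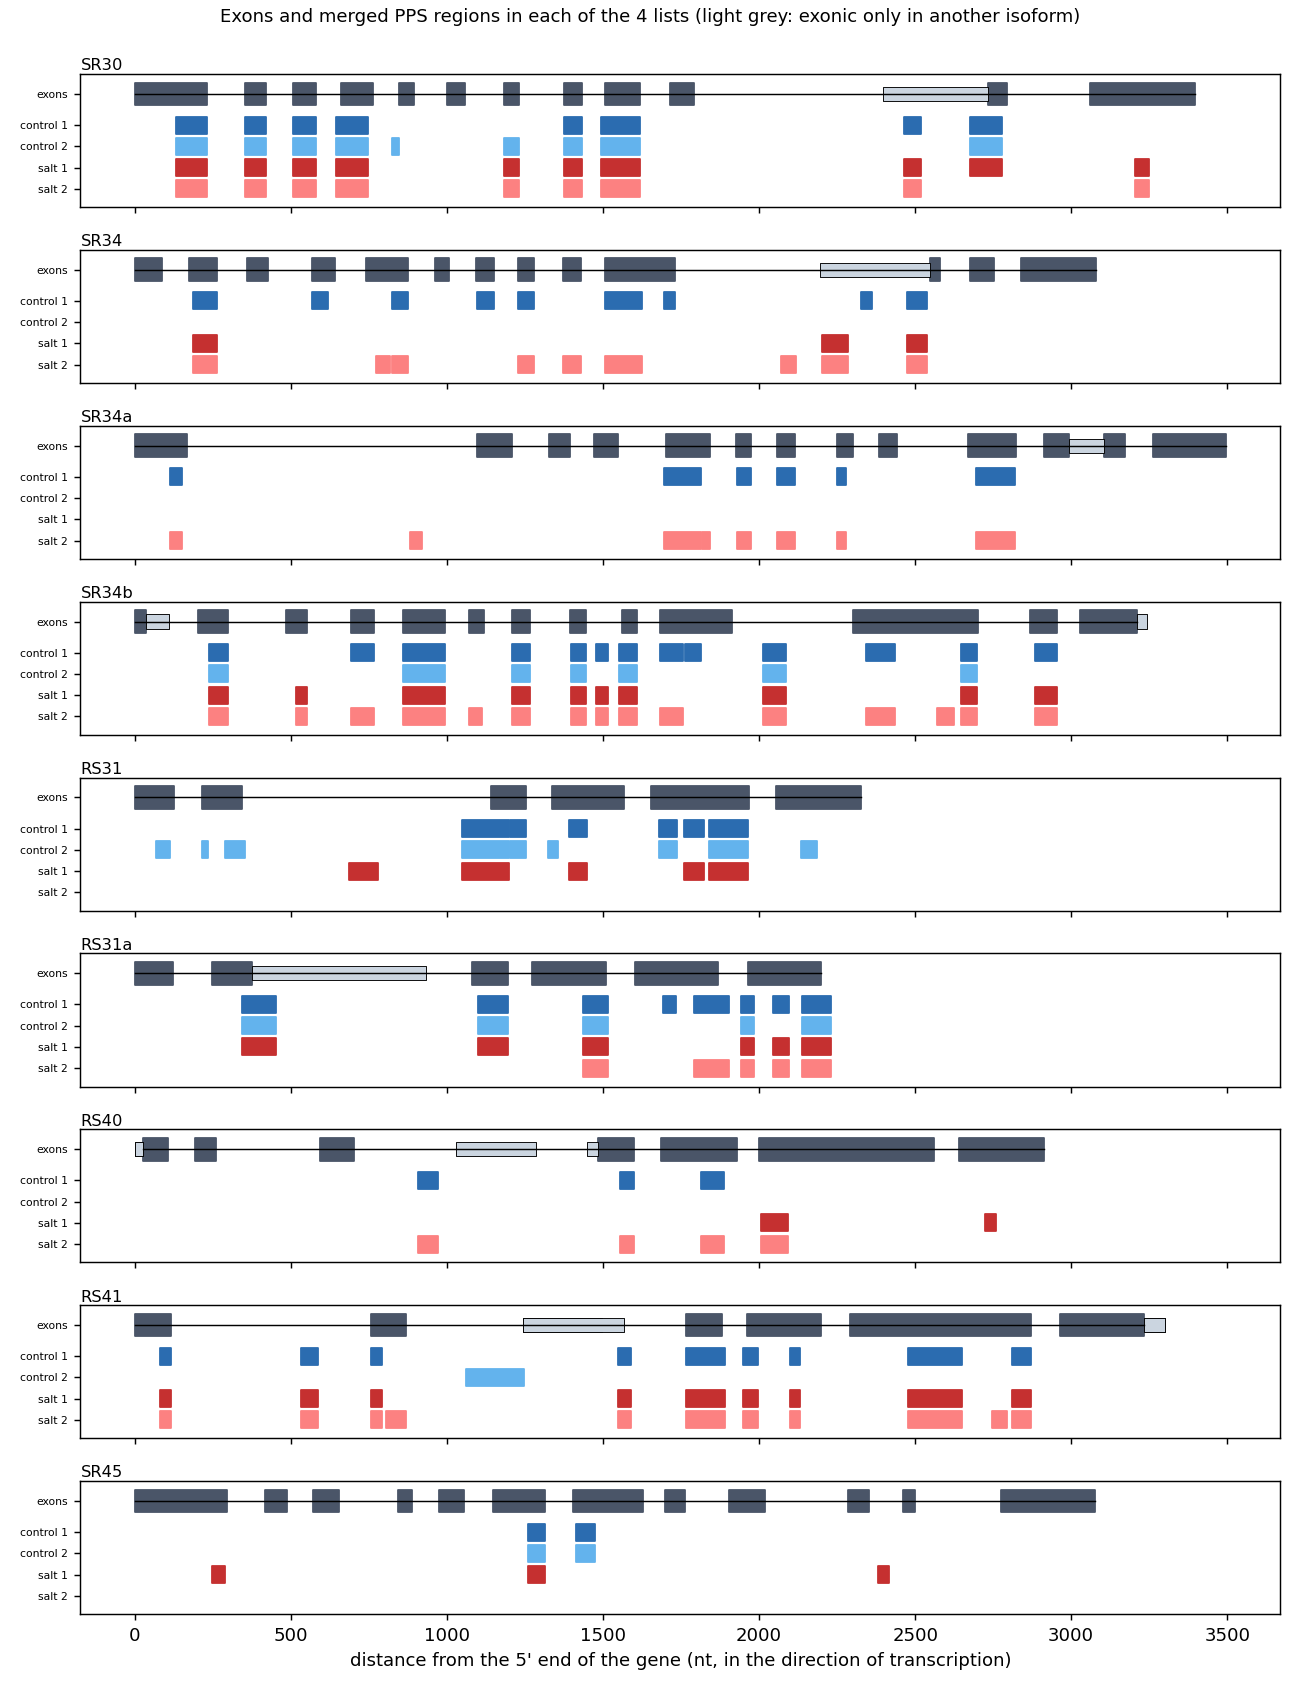
Exons of the main isoform (dark grey), segments exonic only in another isoform (light grey) and merged PPS regions, each drawn at its whole merged length in every list that holds a PPS of it (1 coloured line per list), along the 9 genes, with the distance from the 5’ end in nt on the horizontal axis. In every gene but SR45 PPS regions lie over several coding exons in a row, with gaps such as exons 5 and 6 of SR30. SR45 has 4 regions in all.

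Most PPS bases of these genes were coding. Over all lists 5866 bases were under a PPS, of which 67.4% were CDS, 17.1% UTR and 15.4% intron, in genes that are 31.9% CDS, 20.7% UTR and 47.3% intron. Over all genes the shares of PPS bases were 74.9%, 10.9% and 14.2%, in genes that are 45.5% CDS, 19.5% UTR and 34.9% intron. The intronic share was 10.3% and 15.2% in the control lists and 16.7% and 11.7% in the salt lists, and so the conditions overlapped. All 9 genes had a PPS base in an intron, beside 29.0% of all genes, which were not matched to them on the length of introns.

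Among introns, the longest of each gene was examined on its own. SR34 had 4 regions over 28.7% of its longest intron of 818 nt, and none in its other introns. RS41 had 25.0% of 900 nt covered against 7.95% of its other introns, RS31 24.4% of 798 nt against 4.03%, and SR34b 19.4% of 387 nt against 3.74%. The order in RS41 rests on 1 list, since a region of 184 nt there was in control 2 alone. The other region in this intron of RS41 had 41 nt, in 3 lists. SR30 had 12.0% of 942 nt against 4.23%, RS40 8.31% of 782 nt against 0.00%, and SR34a 4.09% of 929 nt against 0.477%. The value of SR34a rests on 1 region of 38 nt in salt 2 alone. Longest and other introns were not compared over all genes. RS31a was covered less in its longest intron than in the others, at 10.6% and 16.8%, and SR45, whose introns are all of 275 nt or less, had no PPS in its longest. Of the 1021 PPS bases in longest introns, 397 lay in a segment that is exonic in another isoform. They were all 113 in SR30, all 75 in RS31a, 185 of 235 in SR34 and 24 of 225 in RS41. Of the 15 regions in longest introns, 8 touched such a segment. In SR34 these were the 84-nt region found in the salt lists alone, which begins 6 nt after the start of the upstream exon, a region of 36 nt in control 1 and a region of 65 nt in 3 lists that ends 8 nt before exon 11. In RS31 a region of 152 nt in 3 lists (chr3:22901197-22901348) crossed the acceptor site of the 113-nt exon.

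Regions that lay in the longest intron in every isoform were found in SR34, SR34a, SR34b, RS31 and RS40. The region of SR34b was the only one of them in all 4 lists, 99 nt after the start and 213 nt before the end of intron 10. The region of RS40 was in control 1 and salt 2, 204 nt after the start of intron 3. They are printed as intronic sequences under a PPS that no isoform in the tables holds as exon.
SR34b intron 10, chr4:1070986-1071060, plus strand: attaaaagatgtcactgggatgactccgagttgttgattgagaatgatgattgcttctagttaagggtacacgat
RS40 intron 3, chr4:13025478-13025542, plus strand: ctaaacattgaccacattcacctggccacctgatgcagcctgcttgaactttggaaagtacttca

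Short motifs were counted in the 50 nt around the middle of each region, on the strand of the gene only, and without regard to overlap of motifs. GAAG, the core of purine-rich exonic enhancers, was in 31 of 89 regions (34.8%) and in 36.9% of 37617 regions of all genes. GGNGG was in 18.0% and 15.0%. A run of TTTT was in 32 of 89 regions and in 22.5% of those of all genes. These shares are a description of letters in windows and not of binding sites.

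Scores of coding bases under a PPS of the same condition were lower than those of the other coding bases in SR30, SR34b, RS31 and RS31a in both conditions. In SR34b they were −0.53 against 0.39 in control and −0.32 against 0.15 in salt, and in RS31a −0.30 against −0.05 in control and −0.90 against 0.20 in salt. RS41 was the reverse in both conditions, with 0.27 against −0.06 in control and 0.20 against 0.08 in salt. RS40 had 0.09 against −0.30 in control, over 115 bases under a PPS, and 0.09 against 0.05 in salt, a difference of 0.04. SR34, SR34a and SR45 changed order between conditions, as in SR34a with −0.42 against 0.43 in control and 0.09 against −0.09 in salt. Values under a PPS rest on few bases in SR45, 114 in control and 75 in salt. The same comparison over all genes was not made. PPSs and structure scores both draw on the libraries digested without protein, so they are not independent measurements.

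Neighbouring genes overlap 3 of the 9 on the opposite strand. RS41 shares 656 nt with AT5G52045, where 3 of its regions lie, RS31a shares 491 nt with the lncRNA AT2G09740 and 35 nt with AT2G46600, with 1 region each, and RS40 shares 42 nt with AT4G25510, with no region. Since PPSs were taken from either strand, these regions cannot be assigned to a gene.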

How the data were processed

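PIP-seq libraries of 2 control-treated and 2 salt-treated replicates were grouped by their labels. The authors reduced paired libraries to equal size, trimmed reads, mapped them to TAIR10 and collapsed PCR duplicates; the submitters' processing notes name cutadapt 1.2.1 and TopHat2 2.0.10. PPSs were called by the authors with CSAR in a modified form (false discovery rate 5%), and the deposited PPS score is that of CSAR. For the deposited structure score, the authors merged replicates, set coverage of dsRNA-seq against that of ssRNA-seq on a generalized log scale and scaled each transcript, without introns, to its mean. Tables of lncRNA structure were not used here. The deposited tables give no read numbers, so depth per library was not analysed here.

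Region means were taken over the scored bases of the isoform with the longest CDS of each gene, where at least 20 bases were scored in each condition. A difference of at least 0.2 was counted as higher or lower. PPSs counted when they overlapped a gene by at least 1 nt on either strand, and bases were assigned to CDS before UTR before intron over the isoforms in the tables. Scores were read in genomic order on both strands, since bases shared by isoforms of a minus-strand gene then had a median r of 1 over 1575 genes, against 0.25 in reversed order. Sequences came from TAIR10.1 (RefSeq), in which 100% of 14460 coding transcripts of the tables start with ATG and 98.8% of 95773 introns are GT-AG. The steps were tested on simulated data and used Python 3.11.15, numpy 2.4.6, scipy 1.17.1 and matplotlib 3.10.9. The genes, isoforms, longest introns and PPS regions named follow a rule: all 9 genes, and regions in both replicates of both conditions or of 1 condition and not the other. Exons, segments and other regions were named after their values were seen. The members and lists were chosen with earlier results of these data known. Alternatives were other ways of averaging scores, other isoforms, strand, score, length and RNase filters, removal of identical calls and leaving out each replicate.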

Additional observations from a re-analysis of the deposited data

How the results depend on the processing

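Of 18 differences by region of at least 0.2, 14 kept their sign under all 6 alternative ways of averaging and 10 stayed at 0.2 or more. With medians of bases, the 5’ UTR differences of RS31 and RS31a became −0.37 and 0.035 and the 3’ UTR difference of SR30 became 0.16. On bases scored and not 0 in both conditions, the 5’ UTRs of SR34 and RS31 became −0.074 and −0.28. The count of higher 5’ UTRs became 0 with medians and 0 on bases scored in both, the median 5’ UTR difference became −0.32 with medians, and the count of higher CDSs became 1 after subtraction of the median of all transcripts. The cause was not tested.

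PPS numbers in the lists control 1, control 2, salt 1 and salt 2 became 37, 21, 29 and 39 with scores above the median of the list, 22, 19, 23 and 32 with ssRNase calls only, and 27, 10, 6 and 22 without calls identical in another list. On the gene strand they became 32 in control 1, 27 in control 2 and 47 in salt 2. Regions in both salt-treated replicates became 19 on the same strand and 19 without identical calls. The log2 ratio of PPS numbers, salt over control, was 0.09. It was −0.48 without replicate 2 and 0.81 without replicate 1 of both conditions, which are also the values within replicate 1 and within replicate 2, so no direction is given. No paired analysis was possible because no result comes from a test, and the replicate numbers are not known to pair the samples. Merged replicates and tables without read numbers limit what these values can show.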
